A study of Homo sapiens with 4 samples.

Results

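Canonical PRC1 is the form of Polycomb repressive complex 1 that carries a CBX and a PHC subunit beside RING1A or RING1B. The 7 genes described here are 4 Polycomb CBX paralogs (CBX2, CBX6, CBX7 and CBX8) and the 3 PHC paralogs (PHC1, PHC2 and PHC3), chosen by gene family and not by their values. They are 7 of the 57820 genes in the count files, and all 7 passed the filter on low counts that left 15136 tested genes.

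The libraries were prepared from untreated HAP1, a human cell line with a nearly haploid genome. The dKO group (2 libraries) carried KOs of RING1A and RING1B, the catalytic subunits of PRC1, and the tKO group (2 libraries) carried KOs of RING1A, RING1B and BAP1. By its label, every library therefore lacked the enzymes that place ubiquitin on lysine 119 of histone H2A. The comparison asks whether the loss of BAP1, which removes this mark, goes with a change in the transcripts of the CBX and PHC subunits in cells without these enzymes. RING1A and BAP1 had been interrupted by a STOP cassette, whereas RING1B KO cells are described as purchased, and tKO cells were made by mutating BAP1 in dKO cells. KO lines were selected clones, so genotype cannot be told apart from differences between clones, and wild-type cells were not analysed here. In bulk RNA, fewer cells with a transcript cannot be told apart from less transcript per cell.

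In canonical PRC1, the CBX subunit contains a chromodomain that binds histone H3 trimethylated on lysine 27, the mark placed by PRC2, and so brings the complex to PRC2 target genes. The PHC subunit has a SAM domain that polymerises and is linked to compaction of Polycomb chromatin. A complex takes a single paralog of each family at a time, so canonical PRC1 exists in several versions.

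Libraries held between 16054590 and 18455410 counts in genes, and both tKO totals lay below both dKO totals. BAP1 fell from 2046 and 2010 counts in dKO to 158 and 107 counts in tKO (log2 fold change -3.77, limma adjusted p = 0.0065), a call that was lost without either dKO library. RING1 (RING1A) had between 12 and 17 counts in each library, and RNF2 (RING1B) was counted in all libraries at between 68.6 and 86.8 CPM (the count of a gene relative to all gene counts of its library). The RNA of RNF2 thus does not show the loss of RING1B. For that loss the study reports western blots of RING1A, RING1B and BAP1 in dKO and tKO cells. It also reports that the ubiquitin mark on histone H2A was absent from both. Protein was not measured in the libraries described here. No marker gene defines HAP1; of 6 blood cell markers, 0 passed the filter, 3 (SPI1, ITGAM and GATA1) had 0 counts in every library (a floor of 3 counts is at most 0.187 CPM), and their summed level ran from 0.0542 to 0.167 CPM in dKO and from 0.244 to 0.374 CPM in tKO. The replicates of tKO were further apart than those of dKO for 60.5% of the tested genes and for 3 of the 7 genes here (CBX2, CBX6 and PHC3). The median distance on the log2 scale was 0.14 in dKO and 0.20 in tKO over the tested genes, and 0.20 and 0.25 over the 7.

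The promoters of the members were compared first, because the letters show what these genes do and do not share. RefSeq windows of 300 bases (250 before and 50 from the transcription start) were found for 5 of the 7 genes, CBX6, CBX7, PHC1, PHC2 and PHC3, and each window, taken from the GRCh38.p14 annotation, matched GRCh37 exactly at a single place. The windows below are printed 5′ to 3′ in the direction of the gene, with the letters CACGTG in capitals, to set 3 windows that hold these letters beside the window of CBX7, one of the members with low levels per kb, which does not. CACGTG is the E-box bound by MYC and USF family factors, and reads the same on both strands.
CBX6 (chr22:39268172-39268471, minus strand): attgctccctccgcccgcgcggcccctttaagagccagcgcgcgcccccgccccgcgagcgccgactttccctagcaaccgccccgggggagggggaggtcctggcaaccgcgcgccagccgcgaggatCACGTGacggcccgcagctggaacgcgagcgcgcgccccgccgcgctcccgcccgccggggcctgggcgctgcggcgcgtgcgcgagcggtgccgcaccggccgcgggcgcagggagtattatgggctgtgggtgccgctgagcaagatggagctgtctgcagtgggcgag
PHC2 (chr1:33896647-33896946, minus strand): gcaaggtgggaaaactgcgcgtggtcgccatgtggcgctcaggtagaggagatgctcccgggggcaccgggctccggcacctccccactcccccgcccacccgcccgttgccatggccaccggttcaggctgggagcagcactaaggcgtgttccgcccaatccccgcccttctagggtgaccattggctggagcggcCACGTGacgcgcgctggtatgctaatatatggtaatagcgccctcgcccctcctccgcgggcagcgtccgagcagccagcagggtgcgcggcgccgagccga
PHC3 (chr3:169899472-169899771, minus strand): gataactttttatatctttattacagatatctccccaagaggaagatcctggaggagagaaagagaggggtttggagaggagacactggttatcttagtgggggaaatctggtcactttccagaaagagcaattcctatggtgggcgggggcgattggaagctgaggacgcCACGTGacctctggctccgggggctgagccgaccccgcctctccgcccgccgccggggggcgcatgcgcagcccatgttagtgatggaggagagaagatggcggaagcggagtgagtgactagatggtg
CBX7 (chr22:39548636-39548935, minus strand): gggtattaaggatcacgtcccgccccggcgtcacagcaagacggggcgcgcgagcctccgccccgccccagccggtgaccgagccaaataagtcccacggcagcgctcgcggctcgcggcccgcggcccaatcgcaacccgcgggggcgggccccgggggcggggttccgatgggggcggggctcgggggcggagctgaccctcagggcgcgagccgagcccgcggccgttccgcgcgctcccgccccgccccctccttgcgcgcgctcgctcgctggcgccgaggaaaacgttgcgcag

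CACGTG was found in 3 of the 5 genes with a window, CBX6, PHC2 (at its outer start only) and PHC3. Among all RefSeq windows of this length, 7.26% held it, and among tested genes with a window, 12.7% held it in at least 1. Per kb of exon these 3 genes had higher levels than CBX7 and PHC1, the genes with a window but no match. CBX2, which had the highest level per kb of the members, and CBX8 had no window and are missing from this contrast. Across the tested genes the median level was 7.16 CPM per kb of exon with CACGTG (quartiles 2.39 and 17.0) and 5.99 CPM per kb without it (quartiles 1.97 and 13.8), ranges that overlap for most of their length. The motif was picked after the windows had been read, and a match is no evidence of binding. The dinucleotide CG occurred 50 times in the CBX7 window, 47 times in that of CBX6, 30 times at the outer start of PHC2, 48 times at its inner start and 15 times in PHC3, against a median of 14 over all windows. The window at the first start of PHC1 held 10 CG and was 37% G or C, while that of its second start held 28 CG and was 72.3% G or C. CBX7 and PHC1, the genes with the lowest levels per kb, thus had windows at both ends of this range of CG counts.

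Among the 4 CBX genes analysed, CBX2 had the highest level per kb of exon and CBX7 the lowest. CBX2 (ENSG00000173894.6, GRCh37 chromosome 17, 77751947 to 77761782, plus strand) binds DNA and compacts chromatin beside reading the histone mark. It had 2974 and 2562 counts in dKO and 2785 and 2298 counts in tKO, or 161, 142, 170 and 143 CPM. In each genotype library 1 was the higher, and the groups overlapped. Means were 152 ± 13.3 CPM for dKO and 156 ± 18.8 CPM for tKO (SD, n = 2 each). The log2 fold change of 0.045 had a 95% interval of -0.26 to 0.35 (limma adjusted p = 0.996).

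CBX8 (ENSG00000141570.6, chromosome 17, 77765931 to 77775482, minus strand) lies 4148 bases from CBX2 and is transcribed towards it. It was counted 723 and 566 times in dKO and 554 and 534 times in tKO, corresponding to 39.2, 31.5, 33.8 and 33.3 CPM. The tKO values lay between the dKO values, so that the spread within dKO was larger than the difference between genotypes. The log2 fold change of -0.063 had a 95% interval of -0.42 to 0.30 (limma adjusted p = 0.996).

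CBX6 (ENSG00000183741.7, chromosome 22, 39257427 to 39268254, minus strand), a further chromodomain paralog, showed the largest difference of the 7 genes. It had 1534 and 1422 counts in dKO and 1537 and 1814 counts in tKO, or 83.1, 79.0, 93.6 and 113 CPM. Both tKO libraries were above both dKO libraries, and tKO 2 was further from tKO 1 than tKO 1 was from dKO 1. The means were 81.1 ± 2.88 CPM in dKO and 103 ± 13.7 CPM in tKO (SD, n = 2 each), but this difference did not pass the test across all genes (log2 fold change 0.35, 95% interval 0.064 to 0.63, limma adjusted p = 0.996). This corresponds to 1.27-fold, with an interval of 1.05 to 1.55. No fit that used all 4 libraries gave any of the 7 genes an adjusted p below 0.05. The log2 fold change of CBX6 was 0.47 without tKO 1 and 0.22 without tKO 2. In both of these fits the lone tKO library is assumed to vary like the dKO pair.

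CBX7 (ENSG00000100307.8, chromosome 22, 39516172 to 39548685, minus strand), a repressor of the INK4A/ARF locus and the main CBX subunit of embryonic stem cells, lies 248 kb from CBX6 and had few reads. Counts were 93 and 125 in dKO and 133 and 98 in tKO, or 5.04, 6.95, 8.10 and 6.10 CPM. The replicates differed by 0.43 on the log2 scale within each genotype, more than the genotypes did, and the groups overlapped. With this depth the log2 fold change of 0.25 had a 95% interval of -0.38 to 0.88, the widest of the 7 genes (limma adjusted p = 0.996).

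**Figure D1:**
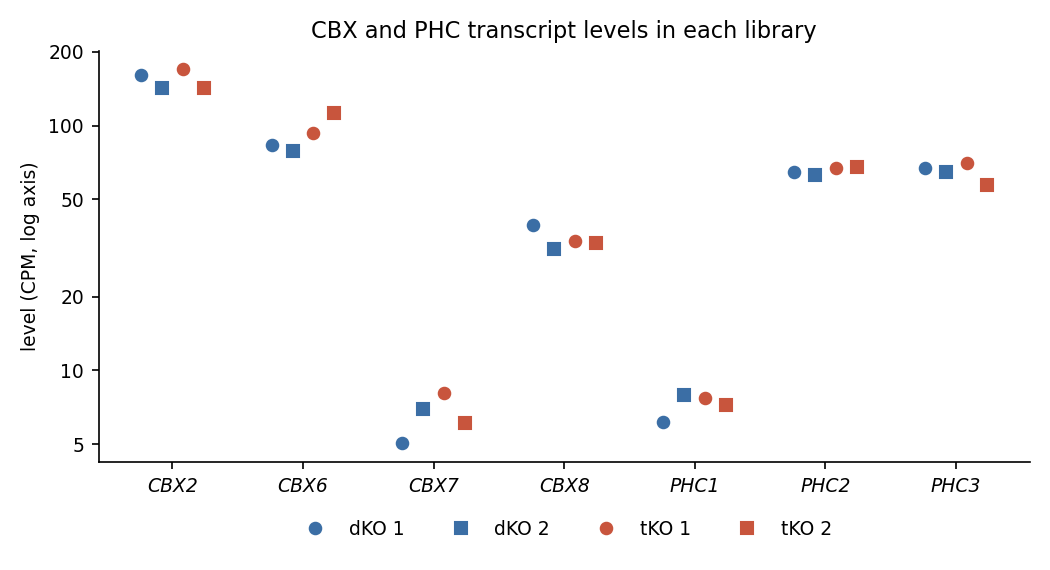
Level of each CBX and PHC gene in CPM (log axis) in the 4 libraries, with dKO in blue, tKO in red, replicate 1 as circles and replicate 2 as squares. CBX7 and PHC1 sit between 5.04 and 8.10 CPM in every library, below the other 5 genes, and the genotypes are apart only for CBX6 and PHC2.

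Among the PHC subunits, PHC2 had the highest level per kb of exon and PHC1 the lowest. PHC2 (ENSG00000134686.12, chromosome 1, 33789224 to 33896696, minus strand), whose SAM domain polymer has been linked to Polycomb clustering, had 1192 and 1136 counts in dKO and 1098 and 1093 counts in tKO. Its levels of 64.6, 63.1, 66.9 and 68.1 CPM were the most alike across libraries of the 7 genes. Both tKO values were above both dKO values, but by a small amount (63.9 ± 1.02 CPM in dKO and 67.5 ± 0.836 CPM in tKO, SD, n = 2 each). The log2 fold change of 0.084 had a 95% interval of -0.16 to 0.33 (limma adjusted p = 0.996), which is the narrowest of the 7.

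PHC3 (ENSG00000173889.11, chromosome 3, 169804520 to 169899537, minus strand) was counted 1239 and 1167 times in dKO and 1152 and 916 times in tKO, or 67.1, 64.9, 70.2 and 57.1 CPM. The tKO libraries were the highest and the lowest of the 4, and the difference between genotypes was smaller than between the tKO replicates (log2 fold change -0.056, 95% interval -0.38 to 0.27, limma adjusted p = 0.996). PHC3 lies on the long arm of chromosome 3, and the 28 tested genes within 5 Mb of it had median log2 ratios to dKO of -0.066 in tKO 1 and -0.15 in tKO 2. Around the other 6 genes these regional medians lay between -0.029 and 0.084 in both tKO libraries. For CBX6 the 117 surrounding genes had medians of -0.018 and 0.039, against 0.22 and 0.47 for CBX6 itself.

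PHC1 (ENSG00000111752.6, chromosome 12, 9066492 to 9094063, plus strand), the paralog linked to the pluripotent state, had 114 and 143 counts in dKO and 127 and 116 counts in tKO, or 6.18, 7.95, 7.74 and 7.23 CPM. The tKO values again lay inside the dKO range (log2 fold change 0.096, 95% interval -0.43 to 0.62, limma adjusted p = 0.996).

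PHC1 differed from the other members in the strand of its reads. Of its stranded reads, 58.7% and 54.0% in dKO and 52.3% and 48.7% in tKO were on the strand opposite to the gene, or 162, 168, 139 and 110 reads. For the other 6 genes this share was at most 4.03%, reached by PHC3, and at most 1.09% without PHC3. Over all genes it was between 4.01% and 4.24% in each library. The annotation places the end of M6PR (the cation-dependent mannose-6-phosphate receptor), on the minus strand, over the last 1105 bases of PHC1, from 9092959 to 9094063. M6PR had between 1344 and 1568 counts in each library, and a lncRNA gene on the minus strand (ENSG00000282022), not among the genes counted, covers the first 1381 bases. The part of either gene in the opposite-strand reads was not tested. Counting without strand gave PHC1 97 and 125 reads in dKO and 96 and 102 in tKO, fewer than the stranded count in every library. PHC3 was likewise counted less often without strand (854 to 1108 reads against 916 to 1239). PHC1 also has a processed pseudogene, PHC1P1, with between 18 and 31 counts, and reads that fit both were not counted for either, so the level of PHC1 is uncertain.

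**Figure D2:**
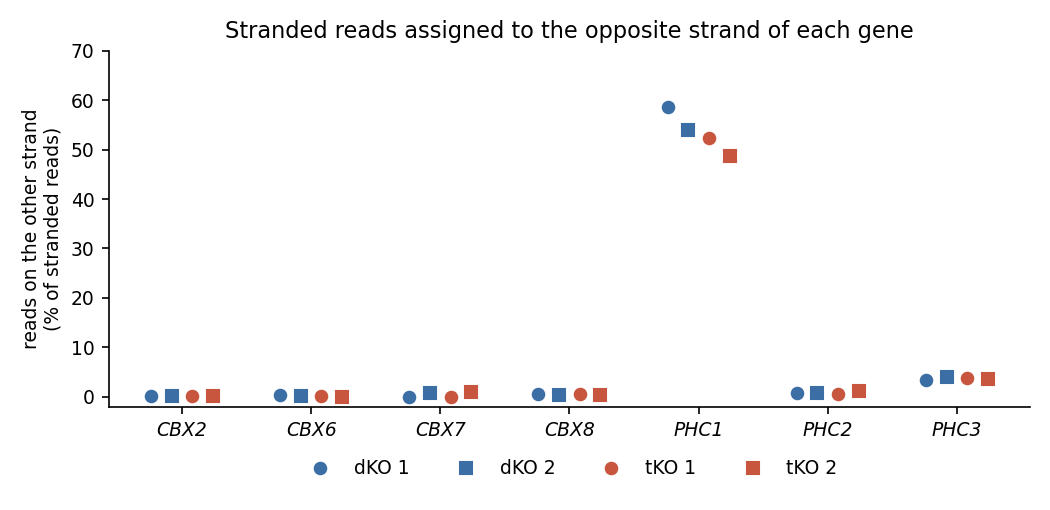
Share of the stranded reads of each gene that fell on the opposite strand, in percent, for each of the 4 libraries. PHC1 lies between 48.7% and 58.7%, and every other gene lies at or below 4.03%.

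Levels of different genes were compared per kb of exon, with the length of the union of the annotated exons. CBX2 was the highest, at 27.2 CPM per kb over the 4 libraries (range 25.1 to 29.9), which placed it at percentile 89.1 of the tested genes. PHC2 followed at 11.8 CPM per kb and CBX6 at 11.5 CPM per kb, and their ranges (11.4 to 12.3 and 9.89 to 14.1) overlapped. CBX8 came next at 8.34 CPM per kb (7.63 to 9.50), then PHC3 at 3.83 CPM per kb (3.37 to 4.15). PHC1 at 1.19 CPM per kb (1.01 to 1.30) and CBX7 at 0.877 CPM per kb (0.675 to 1.09) were the lowest, and their ranges overlapped. The median over the tested genes was 5.23 CPM per kb, so 4 of the 7 genes lay above it. From CBX2 to CBX7 the mean level per kb differed 31.0-fold, a ratio that was 16.3-fold with the mean transcript length and 20.9-fold with the canonical transcript. For no gene did the genotypes differ by more than the 1.27-fold of CBX6.

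The mean level of CBX6 was above that of CBX8 with each length, at 11.5 against 8.34 CPM per kb with the union of exons. With the mean transcript length these means were nearly equal (24.1 against 23.8 CPM per kb), so the order of CBX6 and CBX8 was not settled there. The place of CBX2 above CBX6 and CBX8, and of PHC1 and CBX7 below the other 5 genes, did not rest on the length used. The order of PHC2 and PHC3 did: PHC2 was the higher per kb with the union of exons, where PHC3 is 16.9 kb long, and with the canonical transcript (16.4 against 5.12 CPM per kb), whereas PHC3 was the higher with the mean transcript length (33.4 against 29.0 CPM per kb). 

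Within the CBX group, CBX2 made up 58.0% and 57.7% of the summed level per kb in dKO and 58.8% and 52.3% in tKO. CBX6 contributed 21.2% and 22.7% in dKO and 23.02% and 29.3% in tKO, and CBX8 19.4% and 17.5% in dKO and 16.1% and 16.7% in tKO. CBX7 contributed between 1.38% and 2.14% in every library. The share of CBX6 was thus higher in both tKO libraries and that of CBX8 lower, whereas CBX2 overlapped. The step for CBX6 was small in tKO 1 and larger in tKO 2. Shares within a family depend on each other, and the CPM values of CBX8 itself overlapped between the genotypes. Within the PHC group, PHC2 held between 68.9% and 72.9%, PHC3 between 20.1% and 23.9% and PHC1 between 6.06% and 7.85%, and the genotypes overlapped for all 3. With the mean transcript length, the means over the 4 libraries were 43.8% for PHC2 and 50.3% for PHC3. With 2 libraries against 2, no test of these shares was made.

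The summed level of the 4 CBX genes was 46.3 ± 3.84 CPM per kb in dKO and 49.6 ± 1.87 CPM per kb in tKO (SD, n = 2 each), and that of the 3 PHC genes was 16.6 ± 0.0746 and 17.1 ± 0.457 CPM per kb. The ratio of the CBX sum to the PHC sum was 2.95 and 2.64 in dKO and 2.91 and 2.87 in tKO, so that both tKO values lay between the dKO values.

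**Figure D3:**
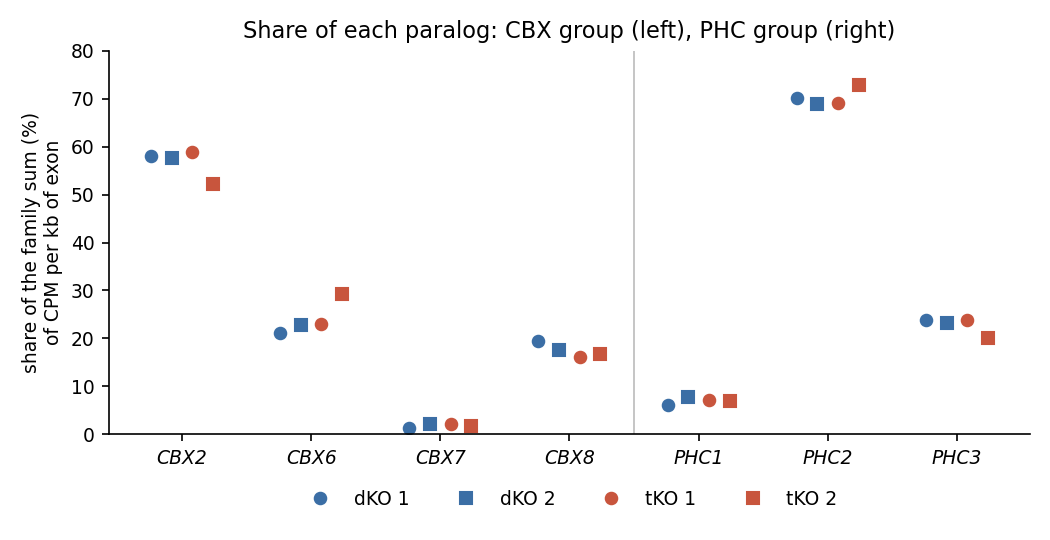
Share of each paralog in the summed CPM per kb of exon of its family, in percent, for each library, with the CBX genes to the left of the grey line and the PHC genes to the right. CBX2 (52.3% to 58.8%) and PHC2 (68.9% to 72.9%) are the largest of their families in every library with this length, and CBX6 in tKO 2 stands at 29.3%.

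Of the 7 genes, 0 passed an adjusted p below 0.05 with an absolute log2 fold change above 1 in limma, against 2 of the tested genes, or 0.0132%. With the other fits 0 of the 7 passed as well, where the share of tested genes was 0.00661% with the edgeR quasi-likelihood test, 0.165% with DESeq2 and 0.0859% with the replicate number as a block. An absolute log2 fold change above 1, with no test, was reached by 0 of the 7 and by 1.78% of the tested genes. At an unadjusted p below 0.05 in limma there was 1 of the 7, CBX6, against 3.55% of the tested genes. The groups did not overlap with tKO higher for 2 of the 7, CBX6 and PHC2, where 15.1% of the tested genes behaved so, and with tKO lower for 0 of the 7, against 16.3%. The median log2 fold change of the 7 was 0.084, within a range of -0.063 to 0.35, and the median over all tested genes was -0.0014. The median of its absolute value was 0.084 for the 7 and 0.12 for all tested genes. A change of 2-fold lay outside the 95% interval for each of the 7 genes, whereas a change of 1.5-fold upwards lay outside it for CBX2, CBX8, PHC2 and PHC3 but not for CBX6, CBX7 and PHC1.

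**Figure D4:**
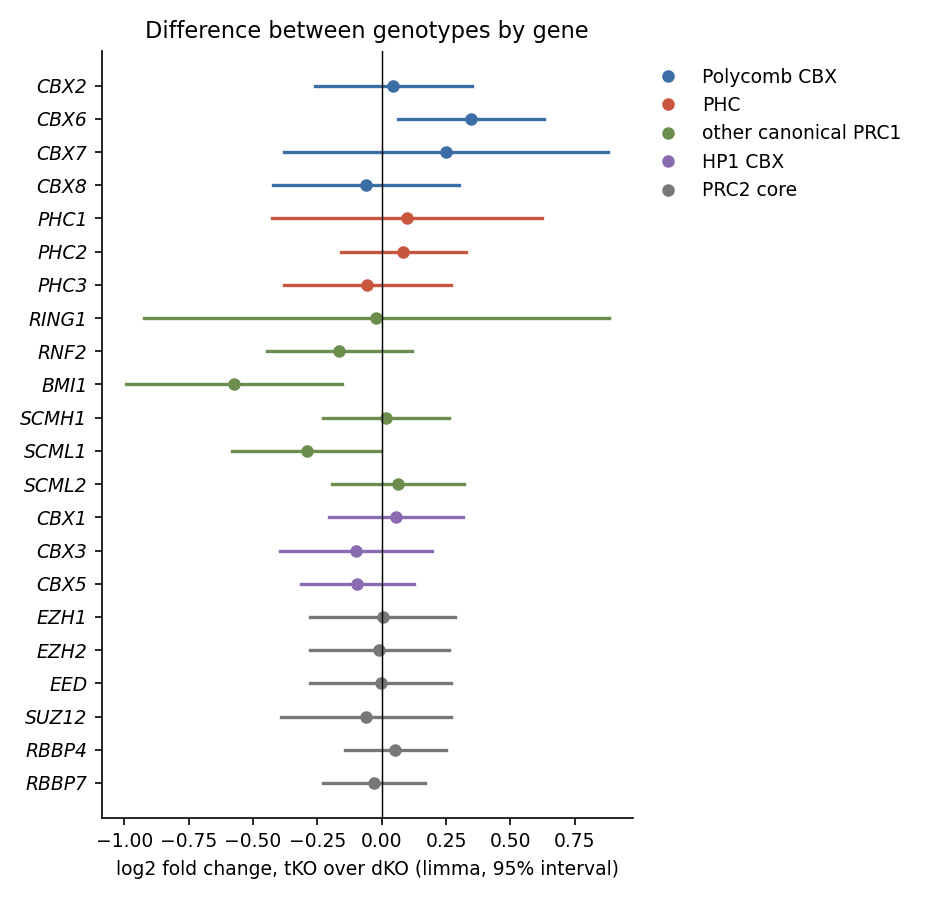
Log2 fold change of tKO over dKO with its 95% interval in limma for the CBX and PHC genes, the other canonical PRC1 genes, the HP1 CBX paralogs and the PRC2 core. Of the CBX and PHC genes only CBX6 has an interval that leaves out 0 (0.064 to 0.63), and BMI1 is the lowest point of all at -0.57.

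The partners of the CBX and PHC subunits were taken from a list of 7 canonical PRC1 genes, of which 6 were matched and tested (PCGF2 was not matched by its identifier). Of these, 0 passed in either direction in limma, and 2 had an unadjusted p below 0.05. BMI1 is a PCGF subunit that pairs with RING1B in canonical PRC1. It was measured at 74.6 and 70.3 CPM in dKO, 40.3 CPM in tKO 1 and 58.4 CPM in tKO 2 (log2 fold change -0.57, limma adjusted p = 0.996). It lies on the short arm of chromosome 10, where the 30 tested genes within 5 Mb had a median log2 ratio of -0.9998 in tKO 1 and -0.053 in tKO 2, against -0.83 and -0.32 for BMI1. The part of this region in the value of BMI1 was not tested. The log2 fold change of BMI1 was -0.32 without tKO 1 and -0.83 without tKO 2. SCML1, a SAM domain protein related to the Polycomb protein Scm, had 114 and 139 CPM in dKO and 106 and 99.5 CPM in tKO (log2 fold change -0.29, limma adjusted p = 0.996). Without 1 library its log2 fold change ran from -0.43 (without dKO 1) to -0.16 (without dKO 2). SCMH1 and SCML2, which also bind PHC proteins through a SAM domain, had log2 fold changes of 0.015 and 0.065, RNF2 of -0.17 and RING1 of -0.02. Tested genes lower in both tKO libraries made up 3 of the 6 partners (RNF2, BMI1 and SCML1), against 16.3% of all tested genes and 0 of the 7 CBX and PHC genes. RNF2 met this by a small margin (76.9 CPM in tKO 1 against 77.0 CPM in dKO 1), and with TMM library sizes the count was 2 of 6 (BMI1 and SCML1), against 15.9% of all tested genes.

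For the HP1 CBX paralogs CBX1, CBX3 and CBX5, which carry a chromodomain that reads methylation of lysine 9 on histone H3, 0 of 3 passed in limma, none at an unadjusted p below 0.05, and log2 fold changes lay between -0.0998 and 0.055. For the 6 genes of the PRC2 core (EZH1, EZH2, EED, SUZ12, RBBP4 and RBBP7), which make the mark that the CBX chromodomain binds, 0 passed in limma, none at an unadjusted p below 0.05, and log2 fold changes lay between -0.061 and 0.053. RBBP4 (log2 fold change 0.053) had both tKO libraries above both dKO libraries and RBBP7 both below, against 15.1% and 16.3% of the tested genes. With TMM library sizes this held for RBBP4 but not for RBBP7. RBBP4 and RBBP7 are histone binding proteins shared with other complexes.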

How the data were processed

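RNA-seq libraries were made from total RNA of HAP1 cells with a stranded mRNA kit. The authors trimmed reads with cutadapt (1.12) through Trim Galore (0.4.4), removed rRNA reads with Bowtie (1.2), mapped the rest to GRCh37 (hg19) with STAR (2.5.2b), and deposited raw counts per gene of GENCODE release 19 from uniquely mapped reads. With this kit the first read of a transcript maps to the strand opposite to its gene, so the deposited column of such counts was used as the count of the gene, and the column of the same strand as the opposite-strand reads of the report. Between 27.3% and 28.7% of reads were in rows that name no gene and were left out. Exon lengths, positions and symbols came from GENCODE release 44 on GRCh37, matched on identifiers without version, which gave a symbol for 97.5% of tested genes; exon models differ between the releases.

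A gene was tested when at least 2 libraries had a CPM over 0.5. Counts were turned into log2-CPM (prior count 2, TMM factors from 0.990 to 1.01, edgeR 4.0.16) and fitted with limma (3.58.1, R 4.3.3) with genotype as the only term, letting the prior variance follow the mean. The Benjamini-Hochberg adjustment ran over all tested genes. Filter, TMM, model and thresholds were taken from the study's methods. The log2-CPM scale of the fold changes understates changes of genes with few counts. CPM values in the text are counts over the gene total of the library. The fit was tested on simulated data that gave both genotypes the same spread for each gene, so the wider spread of tKO was not covered. At this depth 3 counts correspond to 0.163 to 0.187 CPM, a floor that covers counting error only. The study describes its replicates as independent biological replicates; whether they came from separate clones was not established here.

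The members and lists were chosen with earlier results of these data known. The genes named were the members, the targeted genes, every gene of the 3 partner lists and, for each member, the tested gene nearest to it over the 4 log2-CPM values. Other fits were DESeq2 (1.42.0), edgeR's quasi-likelihood test, voom weights, limma with a constant prior variance, RLE size factors, all genes or those with CPM above 5 only, a prior count of 0.25, unstranded counts, a replicate block, leaving out each library, and other gene lengths, of which the canonical transcript length was added after seeing the data, as were TMM library sizes for the counts of genes whose groups do not overlap. The planned alignment of the proteins was not run.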

Additional observations from a re-analysis of the deposited data

How the results depend on the processing

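The number of CBX and PHC genes past the threshold was 0 under every alternative run. The number of tested genes past it was 2 in limma, 1 with the edgeR quasi-likelihood test, without a trend, at CPM above 5 and with unstranded counts, 25 with DESeq2 and 0 with no filter; BAP1 lost its call without a trend (limma adjusted p = 0.384), with no filter (0.734) and without either dKO library, at log2 fold changes from -4.05 to -3.50 over the fits without 1 library. With the replicate number as a block it was 13, but the deviations of same-numbered libraries had a correlation of only 0.0581, so the numbers were not taken to pair the libraries; the block changed no call of the 7 genes. Leaving out 1 library gave between 0 (either dKO library) and 480 genes (without tKO 1; 175 without tKO 2), with the spread then taken from the remaining pair.

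Directions of small differences depended on single libraries. Over the fits without 1 library, log2 fold changes ran from -0.090 to 0.18 for CBX2, -0.23 to 0.10 for CBX8, -0.076 to 0.26 for PHC1 and -0.22 to 0.11 for PHC3, and kept their sign for CBX6 (0.22 to 0.47), CBX7 (0.03 to 0.47) and PHC2 (0.06 to 0.11). Signs also changed for RING1 (-0.25 to 0.20), SCMH1 (-0.050 to 0.080), SCML2 (-0.014 to 0.14), CBX1 (-0.065 to 0.17), CBX3 (-0.27 to 0.069), EZH1 (-0.075 to 0.081), EZH2 (-0.12 to 0.10), EED (-0.083 to 0.073) and SUZ12 (-0.24 to 0.11). Without a sign change, BMI1 ran from -0.83 to -0.32, SCML1 from -0.43 to -0.16 and RNF2 from -0.26 to -0.071. EZH1 was also at -0.0053 with no filter, against 0.0034. The cause was not tested.

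In the order by level per kb, 6 members changed place with the mean transcript length, 2 with the canonical transcript length (PHC1 and CBX7), and from 0 to 2 when 1 library was left out. With the mean transcript length the share of CBX6 was 19.1%, of CBX7 3.601%, of CBX8 18.9%, of PHC2 43.8% and of PHC3 50.3%, and with the canonical length that of CBX7 was 2.69% and of CBX8 15.5%; these follow from the lengths used. Depth limits CBX7 and PHC1, with 93 to 143 counts per library.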

Other observations

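For each of the 7 genes, the tested gene closest to it over the 4 log2-CPM values (by Euclidean distance) was NELFCD for CBX2 (distance 0.0470), ULK3 for CBX6 (0.1502), RAB33A for CBX7 (0.197), IL17RA for CBX8 (0.0695), ADAM19 for PHC1 (0.123), THADA for PHC2 (0.0275) and YIPF4 for PHC3 (0.0559). ULK3, the gene closest to CBX6, had 86.2 and 86.3 CPM in dKO and 89.8 and 114 CPM in tKO, so that it too was highest in tKO 2. NELFCD, closest to CBX2, had 161 and 142 CPM in dKO and 164 and 144 CPM in tKO, with library 1 above library 2 in each genotype. With 4 libraries and 15136 genes, closeness of this kind is a description of level and shape only.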
